A study of Mus musculus with 2 samples.

Results

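The 9 complement genes described here are C1qa, C1qb, C1qc, C1ra, C1s1, C4b, C3, Cfb and Serping1, which were chosen by name and matched by Ensembl identifier, and they are 9 of the 30406 genes on the gene lists of both libraries. Their UMIs (unique molecular identifiers, each standing for 1 captured transcript) were followed across the cell classes of mouse liver to describe which cells each component came from. Liver cells were profiled by droplet single-cell RNA sequencing in 1 library from healthy mice and 1 from mice given the liver toxin carbon tetrachloride (CCl4), a compound that hepatocytes convert to a reactive form. All mice were labelled Col1a2CreER:Rosa26tdTomato, so a tamoxifen-inducible Cre under the Col1a2 promoter, which is active in collagen-producing cells, can switch on a red reporter, and this genotype was common to both libraries. The labels give no age, injection schedule or number of animals. The study describes the CCl4 injury as chronic, from repeated injections over weeks, and gives an age for mice of this genotype. Its methods add that most CD45-positive cells, which are immune cells, were removed with magnetic beads. With 1 library per condition no difference between conditions could be tested, and every interval below covers counting error only.

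Complement is a cascade of plasma proteins that tags and lyses targets. In the classical pathway C1q, assembled from the chains of C1qa, C1qb and C1qc, binds a target and activates the proteases C1r and C1s, which cleave C4 and C2. All pathways meet at C3, and factor B (Cfb) forms the convertase of the alternative pathway, which amplifies C3 cleavage. Serping1 encodes C1 inhibitor, the serpin that blocks C1r and C1s. The liver is known as the main source of most plasma complement, and hepatocytes are named as its main producer, with C1q as the exception, since it comes mostly from macrophages and other myeloid cells.

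The members fall into gene neighbourhoods. In the RefSeq gene table C1qb, C1qc and C1qa follow each other on chromosome 4 with no protein-coding gene starting between them, C1ra and C1s1 are neighbours on chromosome 6, and C4b and Cfb lie on chromosome 17 with 5 protein-coding genes starting between them. The 250 bases before the transcript start are shown for the members whose levels are described side by side below as neighbours, and for C3. RefSeq promoters of build GRCm38.p6 were given for 5 of the 9 members, and those of C1qa, C4b, Cfb and Serping1 are not shown. Each is printed 5′ to 3′ in the direction of the gene, with matches to the searched motifs in capitals.
C3, chr17:57228137-57228386 (minus strand): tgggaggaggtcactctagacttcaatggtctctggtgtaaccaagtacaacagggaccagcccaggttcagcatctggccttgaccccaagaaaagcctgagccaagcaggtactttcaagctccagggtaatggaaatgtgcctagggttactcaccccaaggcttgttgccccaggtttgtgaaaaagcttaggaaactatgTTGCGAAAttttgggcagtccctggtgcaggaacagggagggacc
C1qb, chr4:136886201-136886450 (minus strand): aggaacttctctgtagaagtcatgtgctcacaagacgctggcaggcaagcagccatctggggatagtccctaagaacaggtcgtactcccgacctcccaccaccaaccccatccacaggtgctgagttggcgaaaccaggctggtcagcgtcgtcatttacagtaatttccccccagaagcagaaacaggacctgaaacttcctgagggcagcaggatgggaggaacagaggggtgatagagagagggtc
C1qc, chr4:136892915-136893164 (minus strand): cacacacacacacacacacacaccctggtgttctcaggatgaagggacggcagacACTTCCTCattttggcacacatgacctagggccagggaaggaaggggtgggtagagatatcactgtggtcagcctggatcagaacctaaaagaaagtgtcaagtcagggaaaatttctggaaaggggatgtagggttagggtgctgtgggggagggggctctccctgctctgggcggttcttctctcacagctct
C1ra, chr6:124512371-124512620 (plus strand): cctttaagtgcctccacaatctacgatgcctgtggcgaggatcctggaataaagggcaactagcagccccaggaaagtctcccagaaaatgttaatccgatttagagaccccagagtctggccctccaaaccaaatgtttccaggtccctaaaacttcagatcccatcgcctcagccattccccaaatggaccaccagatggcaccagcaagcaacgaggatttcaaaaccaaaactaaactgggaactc
C1s1, chr6:124542360-124542609 (minus strand): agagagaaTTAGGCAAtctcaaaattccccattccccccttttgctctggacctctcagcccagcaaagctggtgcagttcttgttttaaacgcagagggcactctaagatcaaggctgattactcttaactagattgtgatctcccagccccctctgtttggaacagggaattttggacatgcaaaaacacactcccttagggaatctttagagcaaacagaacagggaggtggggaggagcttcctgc
The motifs, searched on both strands, were TTCNNNGAA for STAT factors, TTGCNNAA for C/EBP factors, GAAANNGAA for IRF factors, GGANTTTCC for NF-kB, GAGGAAGT for PU.1 and TATAAA for the TATA box. C3 held a C/EBP match at positions -45 to -38 from the start. C1s1, for the upstream of its 2 listed starts, held another at -242 to -235, written here on the opposite strand. The window of its other listed start, which is not shown, held no match to any of these motifs. C1qc held a PU.1 match at -195 to -188, written here on the opposite strand. C1qb and C1ra held none of these letters in the window, and among 32851 promoters of this length 9.56% held the C/EBP motif, 2.44% the PU.1 motif, 7.02% the STAT motif, 7.13% the IRF motif, 1.07% the NF-kB motif and 12.4% the TATA box. A match is a run of letters and was not tested as a binding site.

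After filtering, 5602 healthy cells with 46056151 UMIs and 7314 CCl4 cells with 87470008 UMIs remained, with medians of 6783.5 and 11876 UMIs per cell. The members took 83032 UMIs, or 0.180% of those of the healthy library, and 496608, or 0.568%, after CCl4. Cells were clustered without complement genes and named from markers, and each name is written "-like". The healthy library held 327 hepatocyte-like, 1260 cholangiocyte-like (biliary), 3564 endothelial-like, 12 mesenchymal-like, 235 mesothelial-like and 12 macrophage and monocyte-like cells, and the CCl4 library held 331, 23, 648, 3536, 1502 and 168 of them. At least 8 markers of each of these classes, of 10 to 17 on its list, were over 2-fold above the other cells in each library. In the 12 healthy cells of each, 2 mesenchymal markers and 1 macrophage marker were at 0. Unnamed cells numbered 190 and 869 and held 0.650% and 1.98% of the C3 UMIs. Mesothelial-like and endothelial-like cells came mostly from different clusters in each library. All cholangiocyte-like cells were 1 cluster, and most hepatocyte-like cells of each library shared 1 cluster. Mesothelial-like cells were a Myl7-led cluster in the healthy library and a Prg4-led cluster of 863 cells and a Serpinb2-led cluster of 639 cells in the CCl4 library. The Serpinb2-led cluster rested on 3 mesothelial markers. Hepatocyte-like cells were 74 deeply sequenced cells led by Mup11, found in the healthy library alone, and a Gstm3-led cluster of 253 healthy and 331 CCl4 cells with a median of 2053 and 899 UMIs. Endothelial-like cells came from Clec1b-, Gm15675-, Cnmd- and Ccl21a-led clusters in the healthy library and from an Esm1-led cluster in the CCl4 library. A cluster found in 1 library cannot be told apart from that library, and 10 cell barcodes stood in both files.

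Levels are given as CPM, which is the UMIs of a gene per 1000000 UMIs of the class in that library, with exact 95% Poisson intervals. Free RNA gives UMIs in cells that do not express a gene, so lymphoid cells of the CCl4 library serve as a background. In its 77 T and NK cell-like cells, with a median of 4153 UMIs, C3 stood at 121.7 CPM, Serping1 at 29.7, C4b at 20.8, Cfb at 20.8, C1s1 at 14.8 and C1ra at 5.94, and C1qa, C1qb and C1qc had 0 UMIs. In its 71 B and plasma cell-like cells, with a median of 2986 UMIs, C3 stood at 139.6 CPM, Serping1 at 87.2, C4b at 52.3, C1s1 at 48.0, C1ra at 17.4 and Cfb at 8.72, and C1qc stood at 8.72 CPM on 2 UMIs. Levels near these were read as background. In the healthy library no lymphoid class could be used, and the level of albumin (Alb) UMIs outside hepatocytes is given instead.

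**Figure D1:**
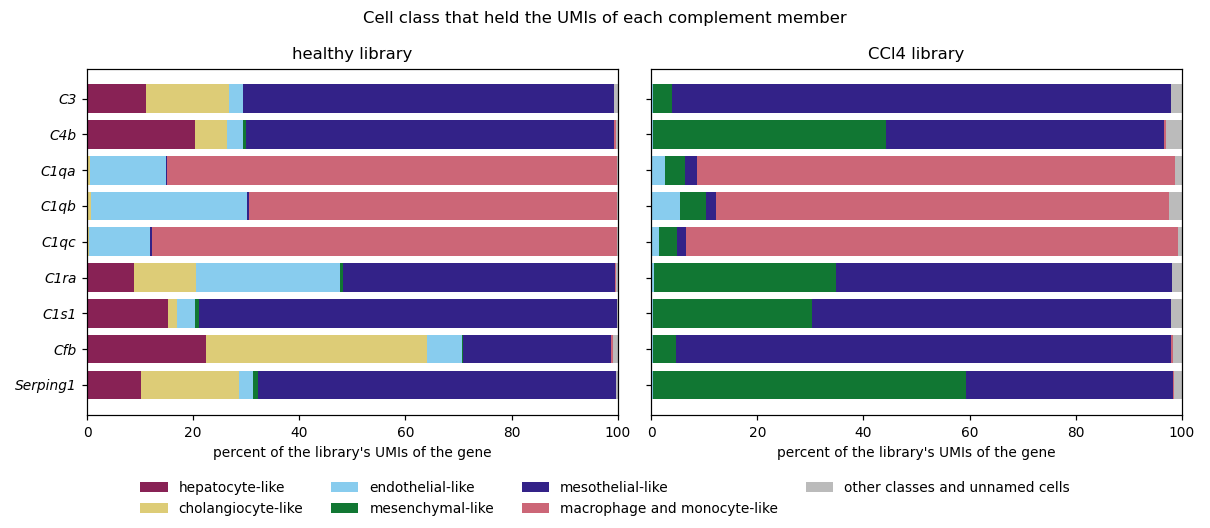
Percent of each member's UMIs held by each cell class in the healthy library (left) and the CCl4 library (right), with other classes and unnamed cells in grey. Mesothelial-like cells held 69.9% and 94.0% of the C3 UMIs, and macrophage and monocyte-like cells held 69.5% to 92.7% of the UMIs of each C1q chain.

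In both libraries the UMIs of the 9 genes divided between few classes, as the plot of UMI shares shows. Mesothelial-like cells, the lining of the liver surface, had the highest CPM of 5 members in each library, which were C1ra, C1s1, C4b and C3 in both, with Serping1 in the healthy library and Cfb in the CCl4 library. Macrophage and monocyte-like cells had the highest CPM of all 3 C1q chains in both. Hepatocyte-like cells led for Cfb alone in the healthy library, and mesenchymal-like cells led for Serping1 alone in the CCl4 library. In both of those cases the interval overlapped that of mesothelial-like cells. With cells thinned to 2000 UMIs each, the share of cells with a UMI was highest in the same class for 8 of 9 healthy and 9 of 9 CCl4 members.

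**Figure D2:**
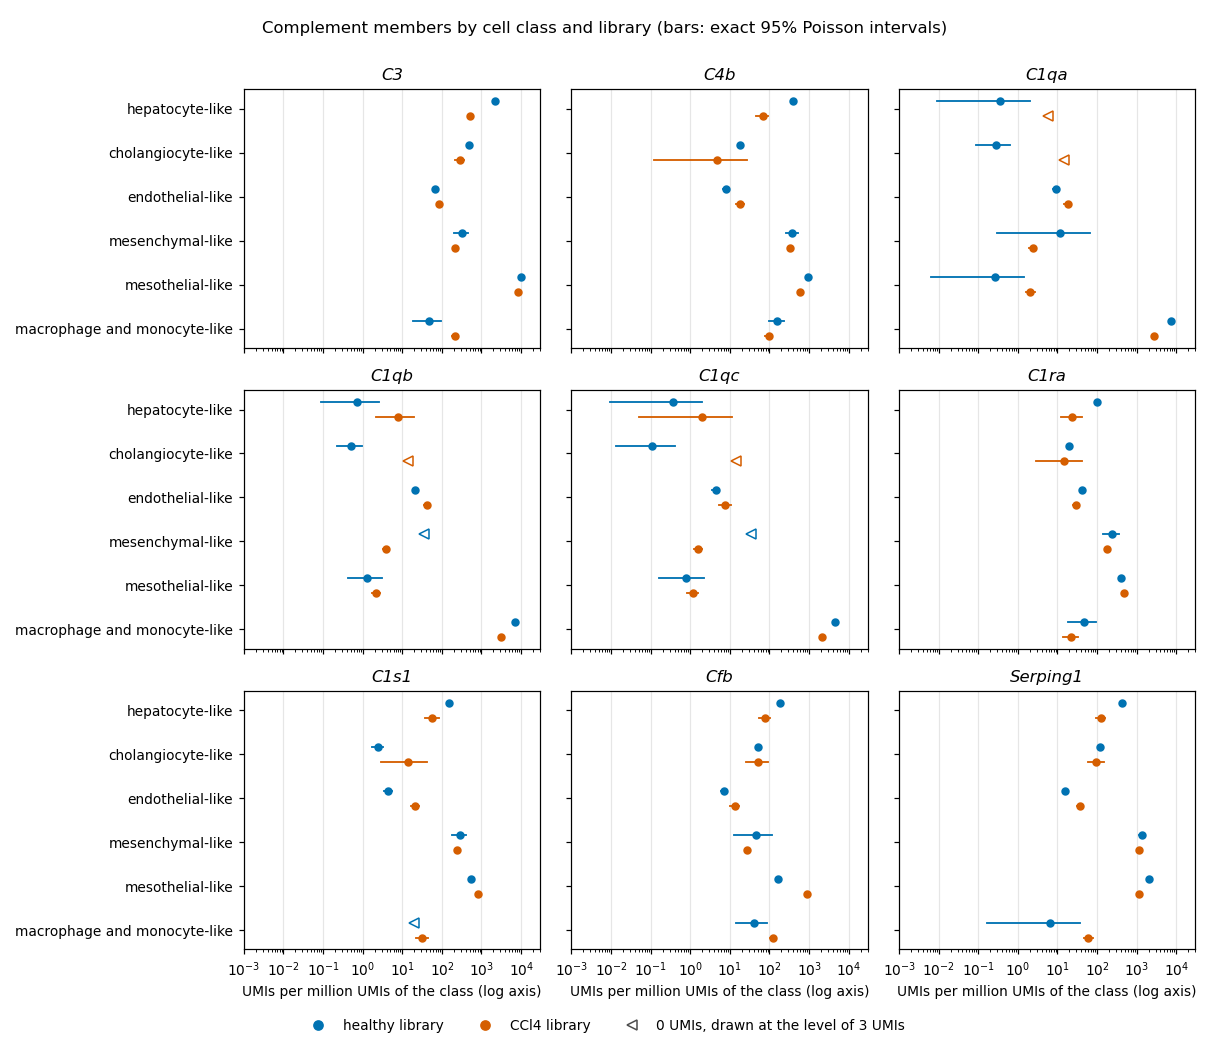
Level of each member (CPM, log axis) in 6 cell classes, with healthy in blue and CCl4 in orange, exact 95% Poisson intervals as bars, and open triangles where no UMI was seen, drawn at the level of 3 UMIs. C3 reached 9898 and 8235 CPM in mesothelial-like cells, and C1qa 7207 and 2747 CPM in macrophage and monocyte-like cells.

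The C1q chains, the recognition part of the classical pathway, came mainly from macrophage and monocyte-like cells. C1qa stood at 7207 CPM (6783 to 7650) in the 12 healthy cells and at 2747 CPM (2643 to 2853) in the 168 CCl4 cells of this class. C1qb stood at 6833 and 3129 CPM there, and C1qc at 4558 and 2104 CPM. The 12 healthy cells held 84.8% of C1qa, 69.5% of C1qb and 87.6% of C1qc UMIs of their library, and the CCl4 cells held 90.1%, 85.4% and 92.7%. These totals follow the depletion of CD45-positive cells as well as the cells' own levels.

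The macrophage clusters differed in C1q. All 9 healthy cells and all 8 CCl4 cells of the Clec4f-led cluster, which carries the Kupffer cell marker Clec4f, had UMIs of every chain, with C1qa at 7718 CPM in the healthy cells and 4447 CPM in the CCl4 cells. In the CCl4 library a Marco-led cluster of 22 cells stood at 4453 CPM of C1qa and a Marco-led cluster of 60 shallow cells, with a median of 999 UMIs, at 3737 CPM. The Ms4a7-led cluster of 29 CCl4 cells stood at 3290 CPM of C1qa and 4746 CPM of C1qb. The Ear2-led cluster of 38 cells, with 2 UMIs of C1qa, 4 of C1qb and 1 of C1qc, and the Chil3-led cluster of 11 cells, with 0 UMIs of any chain, were nearly without C1q. The class level therefore mixed clusters with and without the chains, and the clusters present differed between the libraries.

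Endothelial-like cells held a smaller C1q signal with another balance of chains. C1qb stood at 21.4 CPM (19.4 to 23.5) in the healthy and 42.2 CPM (36.4 to 48.8) in the CCl4 endothelial-like cells, on 433 and 185 UMIs, whereas cholangiocyte-like cells held 9 and 0 and mesothelial-like cells 5 and 67 UMIs of C1qb. CCl4 mesenchymal-like cells held 176 UMIs at 3.79 CPM. C1qb made up 61.3% (57.6 to 64.9, exact binomial interval) of the 706 C1q UMIs of healthy and 62.3% (56.5 to 67.8) of the 297 of CCl4 endothelial-like cells. In macrophage and monocyte-like cells it made up 36.7% (34.9 to 38.6) of 2787 and 39.2% (38.1 to 40.3) of 7690. The intervals of the classes lay apart in each library, so the chains were not in the proportion of the macrophage-like cells. C1qc in CCl4 endothelial-like cells, at 7.53 CPM, was not above its level in B and plasma cell-like cells. All 3 chains were seen together in 14 of the 390 healthy endothelial-like cells with any C1q UMI and in 5 of 149 in the CCl4 library, against 11 of 11 and 99 of 117 macrophage and monocyte-like cells. The 390 endothelial-like cells held 706 C1q UMIs and the 11 macrophage and monocyte-like cells 2787. With so few UMIs per endothelial-like cell all 3 chains could seldom be seen together, so this contrast does not bear on the balance of chains. Of the other CCl4 classes, mesenchymal-like cells had 49.3% (44.0 to 54.6) C1qb among 357 C1q UMIs, also apart from the macrophage-like proportion, and mesothelial-like cells 40.1% (32.6 to 48.0) among 167, which overlapped it. The free RNA subtraction left 0% to 7.82% of each chain in the mesenchymal-like, 0% in the mesothelial-like and 87.5% to 96.4% in the endothelial-like cells of that library. A C1qb share above the macrophage-like one was therefore also seen in CCl4 mesenchymal-like cells. It was lower there than in endothelial-like cells, and little of that signal was left after the subtraction. Within macrophages the Ms4a7-led cluster had 44.4% (42.7 to 46.1) C1qb, above the 35.0% (33.3 to 36.8) of the Marco-led cluster of 22 cells.

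**Figure D3:**
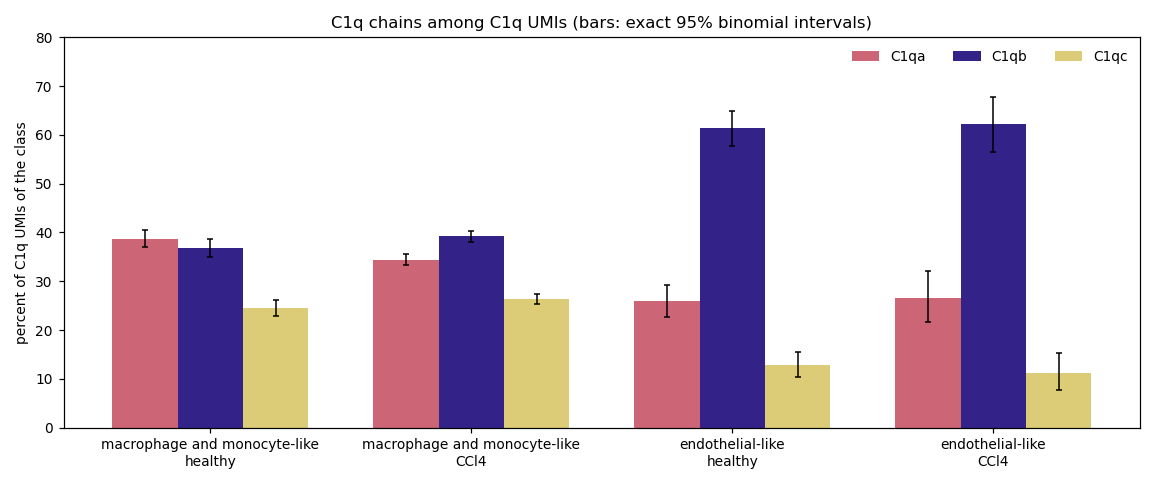
Percent of C1q UMIs that came from C1qa, C1qb and C1qc in macrophage and monocyte-like and endothelial-like cells of both libraries, with exact 95% binomial intervals. C1qb made up 61.3% and 62.3% in endothelial-like cells and 36.7% and 39.2% in macrophage and monocyte-like cells.

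The C1 proteases, which C1q activates, came from other cells than C1q did. C1ra was highest in mesothelial-like cells, at 409 CPM (389 to 430) in the healthy and 483 CPM (475 to 491) in the CCl4 library, followed by mesenchymal-like cells at 233 CPM (142 to 359) and 173.5 CPM (169.8 to 177.4). C1s1 had the same order, at 542 CPM (519 to 565) and 797 CPM (787 to 807) in mesothelial-like cells and 279 CPM (179 to 416) and 234 CPM (230.0 to 238.8) in mesenchymal-like cells. In hepatocyte-like cells C1ra stood at 99.1 and 23.7 CPM and C1s1 at 147 and 57.3 CPM, and in macrophage and monocyte-like cells C1s1 had 0 UMIs in the 12 healthy cells. C1ra in macrophage and monocyte-like cells stood at 46.7 and 21.8 CPM. For C1s1 the class with the highest C1q was below mesothelial-like and mesenchymal-like cells in both libraries, and below hepatocyte-like cells in the healthy one. The CCl4 hepatocyte-like levels were near those of B and plasma cell-like cells (17.4 CPM of C1ra and 48.0 CPM of C1s1). The free RNA subtraction left 0% of their C1ra and 25.7% of their C1s1.

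The neighbours C1ra and C1s1 were spread over the healthy classes differently. In healthy endothelial-like cells C1ra stood at 41.3 CPM (38.6 to 44.2) and C1s1 at 4.35 CPM (3.49 to 5.36), and 27.2% of the healthy C1ra UMIs but 3.32% of the C1s1 UMIs lay in this class. In healthy cholangiocyte-like cells the 2 levels were 19.7 and 2.39 CPM. In the CCl4 library they were nearer, at 29.4 and 21.0 CPM in endothelial-like cells and 14.2 CPM each, on 3 UMIs, in cholangiocyte-like cells. C1ra was spread over the healthy endothelial clusters, at 33.8 to 53.0 CPM in the Clec1b-, Gm15675-, Cnmd- and Ccl21a-led clusters. C1ra per 100 Alb UMIs was 6.49 in endothelial-like, 0.323 in hepatocyte-like, 0.356 in cholangiocyte-like and 186 in mesothelial-like cells of the healthy library. Alb does not follow free RNA of mesothelial-like cells, which had the highest C1ra, so this comparison cannot show that part. After an estimate of free RNA was subtracted, 94.1% of C1ra was left in endothelial-like cells. C1rb and C1s2, near-identical copies that can take reads from these genes, had 0 and 1 UMIs in the healthy and 153 and 85 UMIs in the CCl4 library.

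C4b, the substrate of C1s, was highest in mesothelial-like cells at 957 CPM (926 to 988) in the healthy and 606 CPM (598 to 615) in the CCl4 library. Hepatocyte-like cells stood at 391 CPM (368 to 415) and 67.1 CPM (46.5 to 93.8), and mesenchymal-like cells at 372 CPM (255 to 526) and 338 CPM (333 to 343). The healthy hepatocyte-like and mesenchymal-like intervals overlapped. The CCl4 hepatocyte-like level was near the 52.3 CPM of B and plasma cell-like cells, and the free RNA subtraction left 37.8% of it. By UMIs the source was mostly mesothelial-like (69.3%) and hepatocyte-like (20.4%) in the healthy library, and mesothelial-like (52.5%) and mesenchymal-like (43.9%) in the CCl4 library. C4a, a near-identical copy, was on the CCl4 gene list alone, with 51 UMIs against 35759 of C4b.

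C3, where the pathways meet, was dominated by mesothelial-like cells. It stood at 9898 CPM (9799 to 9998) in the healthy and 8235 CPM (8203 to 8267) in the CCl4 library. These levels were 4.54-fold (4.41 to 4.66) and 15.9-fold (14.1 to 18.0) those of hepatocyte-like cells, the next class. The ratios rest on unlike hepatocyte-like cells, since the healthy level came mostly from Mup11-led cells, which the CCl4 library lacked. The Gstm3-led hepatocyte-like cells alone stood at 319 CPM in the healthy and 517 CPM in the CCl4 library. Every mesothelial-like cell had a UMI of C3, with a median of 158 per cell in the healthy and 143 in the CCl4 library. These cells were 4.19% of healthy and 20.5% of CCl4 cells and held 69.9% and 94.0% of all C3 UMIs. The numbers of cells recovered of each class follow the digestion and density gradient and are no measure of the tissue.

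Among hepatocyte-like cells C3 depended on the cluster. The 74 Mup11-led cells of the healthy library stood at 2858 CPM (2785 to 2932) and held 5799 of the 6034 C3 UMIs of the class. The Gstm3-led cells stood at 319 CPM (280 to 363) in the healthy and 517 CPM (457 to 584) in the CCl4 library. Cholangiocyte-like cells stood at 476 CPM (466 to 486) and 279.9 CPM (213 to 361). Their C3 per 100 Alb UMIs was 8.58 in the healthy library, beside 7.11 in hepatocyte-like, 10.6 in endothelial-like and 4510 in mesothelial-like cells, and the part of free RNA in the cholangiocyte-like level was not tested beyond a subtraction that left 95.2% of it. In healthy endothelial-like cells the same subtraction left 36.2% of the 67.7 CPM, and in CCl4 endothelial-like cells 0% of the 85.3 CPM.

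Mesenchymal-like cells of the CCl4 library stood at 209 CPM (205 to 213) of C3, and 27.7% of them had a UMI at 2000 UMIs per cell, beside 22.3% of the T and NK cell-like and 20.7% of the B and plasma cell-like cells. Subtracting the free RNA estimate left 0% of the class level. Among the 3 largest clusters C3 was highest in the Dpep1-led cluster at 387 CPM (378 to 396), with 120.3 CPM (114 to 127) in the Cxcl14-led cluster, which also carried Acta2, and 62.0 CPM (58.1 to 66.1) in the Angptl6-led cluster, which also carried Rgs5 and Colec10. The last 2 levels were below the 121.7 CPM of the T and NK cell-like cells. A shallow Gm26917-led cluster of 91 cells stood at 506 CPM (441 to 578). Neutrophil-like cells of the CCl4 library stood at 405 CPM (326 to 496), of which the subtraction left 58.3%.

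Cfb, the alternative pathway protease, had nearly equal levels in healthy hepatocyte-like cells, at 181 CPM (165 to 197), and healthy mesothelial-like cells, at 162 CPM (149.5 to 175). By UMIs its largest healthy holder was the cholangiocyte-like class, with 41.6% of UMIs at 51.6 CPM, since this class was large. In the CCl4 library Cfb stood at 885 CPM (875 to 896) in mesothelial-like cells, which held 93.2% of its UMIs. Macrophage and monocyte-like cells came next at 125.6 CPM (104 to 150.0), and within them the Ear2-led cluster stood at 221 CPM (161 to 297). Mesenchymal-like cells stood at 27.7 CPM (26.2 to 29.3) in the CCl4 library, beside 20.8 CPM in T and NK cell-like cells, and the subtraction left 0% of this. Their 3 largest clusters had the reverse order of C3, with 10.1 CPM in the Dpep1-led, 27.9 CPM in the Cxcl14-led and 46.6 CPM in the Angptl6-led cells.

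Serping1, the inhibitor of C1r and C1s, was shared between mesothelial-like and mesenchymal-like cells. It stood at 2072 CPM (2027 to 2118) in healthy and 1159 CPM (1147 to 1171) in CCl4 mesothelial-like cells, and at 1362 CPM (1126 to 1632) and 1171 CPM (1162 to 1181) in mesenchymal-like cells. After CCl4 the ratio of these levels, mesenchymal-like to mesothelial-like, was 1.01 (0.998 to 1.02), and without the Serpinb2-led cluster the mesothelial-like level was 1323 CPM, above the mesenchymal-like one. Mesenchymal-like cells held 59.1% and mesothelial-like cells 39.0% of the Serping1 UMIs there. In the reverse order of C3 and C4b, Serping1 had its highest level in the Angptl6-led of the 3 largest mesenchymal clusters, at 1006 CPM in the Dpep1-led, 1225 in the Cxcl14-led and 1389.9 in the Angptl6-led cells. Hepatocyte-like cells stood at 432 and 122 CPM and cholangiocyte-like cells at 121 and 94.9 CPM.

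**Figure D4:**
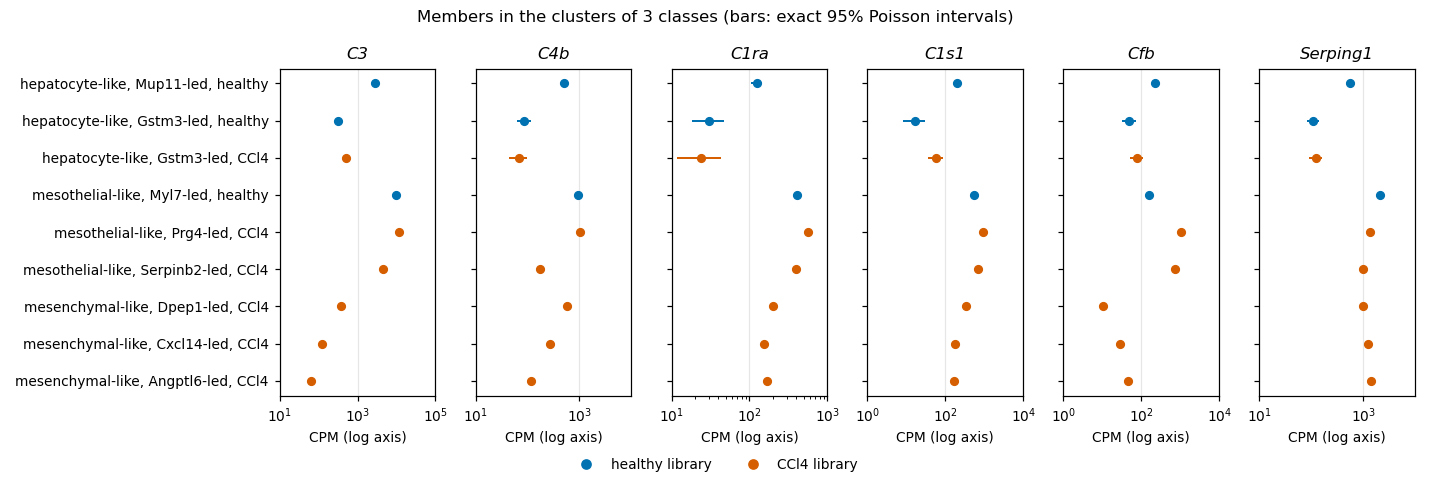
Level (CPM, log axis) of the 6 members other than C1q in the clusters of hepatocyte-like, mesothelial-like and mesenchymal-like cells, with exact 95% Poisson intervals. C3 stood at 11630 CPM in the Prg4-led and 4643 CPM in the Serpinb2-led mesothelial cluster, and at 387 and 62.0 CPM in the Dpep1-led and Angptl6-led mesenchymal clusters.

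The mesothelial clusters of the CCl4 library differed from each other for all 6 members in the plot by cluster. In the Prg4-led cells C3 stood at 11630 CPM (11577 to 11683), C4b at 1016 CPM and Cfb at 1023 CPM, and in the Serpinb2-led cells C3 stood at 4643 CPM (4609 to 4678), C4b at 173 CPM and Cfb at 739 CPM. C4b was lower by the larger factor, whereas C1ra (561 and 400.4 CPM), C1s1 (911 and 677 CPM) and Serping1 (1323 and 985 CPM) were nearer to each other. Both clusters stood above the healthy mesothelial-like cells for Cfb and C1s1 and below them for Serping1.

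Comparing the CCl4 library with the healthy one within a class asks whether the source changed its output with injury. The 4 classes with at least 20 cells in each library were compared, and a gene was counted when it had at least 20 UMIs over both libraries in the class and called when its CPM differed at least 2-fold. Counts below 3 were raised to 3 before the call. In mesothelial-like cells 2 of 9 members were higher and 0 lower, where 13.3% of all 13343 counted genes were higher and 15.1% lower. Cfb was higher by 5.47-fold (5.05 to 5.93), and C1qa was called on 1 healthy UMI and 64 CCl4 UMIs, of which the free RNA subtraction left 0%. C1s1 stood 1.47-fold (1.41 to 1.54) and C1ra 1.18-fold (1.12 to 1.24) the healthy level, and Serping1 0.559-fold (0.546 to 0.573), C4b 0.634-fold (0.612 to 0.657) and C3 0.832-fold (0.823 to 0.841). The median log2 ratio was 0.56 over the 9 members and -0.06 over all counted genes. The C1q chains, each above the healthy level and above this median, had 0% of their CCl4 level left after the subtraction and raised the median. Of the other members, Cfb, C1s1 and C1ra stood above the healthy level and C3, C4b and Serping1 below it. Without the Serpinb2-led cluster Cfb stood 6.32-fold (5.83 to 6.85) the healthy level, C3 1.17-fold (1.16 to 1.19) and C4b 1.06-fold (1.02 to 1.10), so C3 and C4b lay on the other side of 1 without that cluster and Cfb did not. In that comparison 1 of 7 counted members was higher and 0 lower, where 12.1% of all 12471 counted genes were higher and 12.5% lower, and the members' median log2 ratio was 0.23.

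The Cfb value depends on how reads were assigned as well. Gm20547, a gene that overlaps Cfb on the same strand in the GENCODE annotation, was on the healthy gene list with 0 UMIs and was not on the CCl4 list, and counting programs of this kind assign a read that fits 2 genes to neither. The part of this in the Cfb difference was not tested. In cholangiocyte-like cells Cfb stood at 51.6 CPM in the healthy and 52.2 CPM in the CCl4 library, on 11 CCl4 UMIs. The ratio was 1.01 (0.503 to 1.82), in which read loss and a change in level cannot be told apart. In the same annotation no gene on only 1 of the lists overlapped another member on its strand. Other annotations were not searched.

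**Figure D5:**
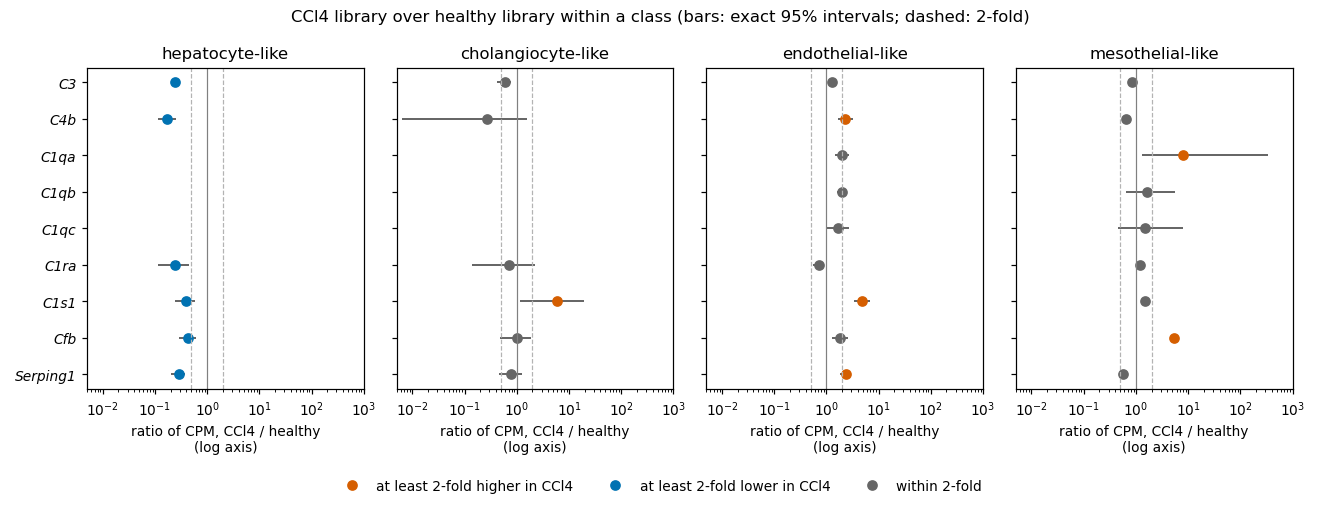
Ratio of CPM, CCl4 library over healthy library (log axis), for the counted members in 4 classes, with exact 95% intervals and dashed lines at 2-fold. All 6 hepatocyte-like points lie below 0.5, and Cfb in mesothelial-like cells lies at 5.47. C4b in cholangiocyte-like cells, with 1 CCl4 UMI, is not called because its count was raised to 3.

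In hepatocyte-like cells all 6 counted members were lower in the CCl4 library, where 14.3% of all 7849 counted genes were higher and 19.5% lower. C4b stood at 0.172-fold (0.118 to 0.241), C3 at 0.237-fold (0.209 to 0.268), C1ra at 0.239-fold (0.122 to 0.425), Serping1 at 0.284-fold (0.216 to 0.366), C1s1 at 0.390-fold (0.258 to 0.569) and Cfb at 0.426-fold (0.299 to 0.590). The median log2 ratio was -1.94 over the 6 members and -0.09 over all counted genes. With a 10% mitochondrial limit 0 members were lower and 1 was higher, with log2 ratios of 0.33 for C3 and 1.02 for C1s1, and with every cell given the same weight 2 were lower. The Mup11-led cells had no counterpart in the CCl4 library. In the Gstm3-led cluster, the cluster that held cells of both libraries, 0 of 6 were lower and 1 was higher, where 18.0% of all 5097 counted genes were lower and 7.14% higher. The ratios there were 1.62 (1.35 to 1.94) for C3, 0.785 (0.501 to 1.21) for C4b, 0.793 (0.358 to 1.67) for C1ra, 3.51 (1.74 to 7.56) for C1s1, 1.57 (0.975 to 2.55) for Cfb and 1.11 (0.786 to 1.57) for Serping1. The call was C1s1, on 12 healthy and 29 CCl4 UMIs. Its CCl4 level of 57.3 CPM was near the 48.0 CPM of the B and plasma cell-like cells. In the CCl4 hepatocyte-like cells Alb stood at 4660 CPM, against 30679 CPM in the healthy ones. This was also below the Alb of cholangiocyte-like cells, at 5546 CPM in the healthy and 11858.5 CPM in the CCl4 library. Subtracting the free RNA estimate from the CCl4 hepatocyte-like cells left 55.5% of Cfb, 38.9% of C3 and 37.8% of C4b. It left 25.7% of their C1s1, 12.3% of their Serping1 and 0% of their C1ra.

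In endothelial-like cells 3 of 9 members were higher and 0 lower, where 6.53% of all 12416 counted genes were higher and 17.5% lower. C1s1 stood at 4.35 and 21.0 CPM, a ratio of 4.83 (3.56 to 6.54), Serping1 at 15.3 and 36.1 CPM, a ratio of 2.35 (1.93 to 2.86), and C4b at 7.86 and 18.3 CPM, a ratio of 2.32 (1.75 to 3.06). The CCl4 levels were below those of the B and plasma cell-like cells (48.0, 87.2 and 52.3 CPM), and those of C1s1 and Serping1 were above those of the T and NK cell-like cells (14.8 and 29.7 CPM). After the free RNA subtraction 4 endothelial members were lower, and the log2 ratios of C4b and Serping1 reversed to -0.37 and -3.12. The C1qa and C1qb ratios, 1.99 (1.51 to 2.61) and 1.97 (1.65 to 2.35), were just below the limit, and C1ra had a ratio of 0.712 (0.587 to 0.858). With TMM scaling 6 of 9 members were called higher, since all ratios shifted up together. In cholangiocyte-like cells, with 23 CCl4 cells, 1 of 6 members was higher and 0 lower, where 3.47% of all 12521 counted genes were higher and 5.54% lower, and that call, C1s1, rested on 3 CCl4 UMIs.

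Mesenchymal-like and macrophage and monocyte-like cells had 12 healthy cells each, and their levels are set side by side without a count. In mesenchymal-like cells the interval of the ratio held 1 for C3, C4b, C1ra, C1s1, Cfb and Serping1, with Serping1 at 0.860 (0.718 to 1.04). In macrophage and monocyte-like cells C1qa had a ratio of 0.381 (0.355 to 0.409), C1qb of 0.458 (0.426 to 0.492) and C1qc of 0.462 (0.423 to 0.504), and the CCl4 class held Ear2- and Chil3-led cells nearly without C1q. Cfb had a ratio of 3.14 (1.40 to 8.71) on 6 healthy UMIs, beside a T and NK cell-like level of 20.8 CPM in the CCl4 library. C3 had a ratio of 4.55 (2.17 to 11.5) on 7 healthy UMIs, and the subtraction left 17.6% of its CCl4 level.

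The genes whose levels were most like each member's were found by Pearson's r of log2(CPM + 1) over the 14 class and library populations with at least 20 cells, as a description, since the populations share libraries and depth. C3 was nearest to Crym (0.91), Vnn1 (0.89) and Cfb (0.86), and Cfb was nearest to Mpp6 (0.89), Il18 (0.87) and C3. C4b, C1s1 and Serping1 shared Rarres2, which encodes chemerin, at 0.92, 0.87 and 0.92. C4b and C1s1 were also near each other (0.90). C1ra was near to Pkdcc (0.89) and Bnc2 (0.87). C1qa was nearest to Vsig4, which encodes a receptor for C3 fragments (0.94), Folr2 and P2ry6 (both 0.92), C1qb to Batf3, Rasa4 (both 0.94) and Vsig4 (0.91), and C1qc to Cd5l (0.95), Adgre1 (0.94) and P2ry6 (0.92).

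Of 39 other complement genes on the list, 33 reached 50 CPM in some class, and their sources differed from those of the members. Hepatocyte-like cells led for 13 of 30 such genes in the healthy library, among them the membrane attack genes C8a, C8b, C8g, C9 and Hc (which encodes C5), the lectins Mbl1 and Mbl2 and the regulators C4bp and Vtn. C8g stood at 1010.0 CPM and C9 at 409 CPM there. Mesenchymal-like cells led for 6, including the collectin Colec11 (1804 CPM) and its protease Masp1 (815 CPM), and kept the lead for Colec10, Colec11 and Masp1 in the CCl4 library. Macrophage and monocyte-like cells led for 5, including properdin, Cfp (1528 CPM), C6 (607 CPM) and Vsig4. Endothelial-like cells led for the membrane inhibitors Cd55 (884 CPM) and Cd59a (591 CPM). Mesothelial-like cells led for C2 alone (981 CPM), the partner of C4b. Cholangiocyte-like cells led for Clu (clusterin) at 15734 CPM in the healthy and 16493 CPM in the CCl4 library.

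In hepatocyte-like cells 16 of the 21 other complement genes counted were lower and 0 higher (19.5% and 14.3% of all genes), from Cpn2 (159 to 1.97 CPM, on 1 CCl4 UMI) and C8b (229 to 21.7 CPM) to Masp2 (182 to 84.9 CPM), whereas Mbl2 stood at 328 and 336 CPM. In the Gstm3-led cluster 7 of 19 were lower (18.0% of all genes), including Clu (845 to 193.5 CPM) and C9 (149.4 to 43.4 CPM), and 2, Mbl2 and Masp1, were higher (7.14% of all genes). In mesothelial-like cells 5 of 20 were higher (13.3% of all genes), including Cfi (4.42 to 32.3 CPM), the protease that degrades C3b, and Cd55 (130.5 to 277 CPM), and 6 were lower (15.1% of all genes), including C2 (981 to 168 CPM). In endothelial-like cells 17 of 31 were lower (17.5% of all genes), among them Cd59a (591 to 229.8 CPM) and Clu (168 to 54.5 CPM), and 4 were higher (6.53% of all genes). Vtn and C8g, led by hepatocyte-like cells in the healthy library, were among the lower genes of both mesothelial-like and endothelial-like cells. From the healthy to the CCl4 library Alb went from 219 to 9.83 CPM in mesothelial-like and from 637 to 39.0 CPM in endothelial-like cells. The part of free RNA in these counts was not tested.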

How the data were processed

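Liver cells of 1 healthy and 1 CCl4 library were measured by droplet single-cell RNA sequencing. The authors deposited counts, as UMIs per gene and cell, made with Cell Ranger 3.1.0 (healthy, 31053 genes) and 6.0.1 (CCl4, 32285 genes). The sources name a human build beside mm10, but the gene identifiers are mouse Ensembl identifiers. The files held 6297 and 8460 cells, none under 500 UMIs. Cells with over 30% mitochondrial UMIs (418 and 642) and a further 0 and 17 under 500 UMIs on the genes common to both lists or under 200 genes were removed, then those with the highest Scrublet scores (277 and 487, from 0.8% per 1000 cells).

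Both libraries were clustered together in scanpy 1.11.5 (2000 variable genes without complement, mitochondrial, ribosomal and sex-linked genes, 10 principal components, 20 neighbours, Leiden resolution 1, seed 1). A class name needed 3 markers at 2-fold in 10% of cells. Mixed clusters were divided once more, a choice made after the clusters were seen. The members, the marker lists and the other complement genes were chosen with earlier results of these data known. The genes named were the members and genes drawn from 2 sets, not all of which are described. These were the other complement genes with at least 50 CPM in a class and, for each member, the 3 genes most like it. Clusters and their leading genes are named as well.

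UMIs were summed per class and library. Intervals are exact at 95% (Poisson for levels, conditional binomial for ratios, Clopper-Pearson for shares) and cover counting error only. Counts under 3 were raised to 3 for calls, and a raised count could set a bound on 1 side only. Free RNA was estimated in each class as the profile of its whole library, scaled to the median level of the other classes' markers there, and subtracted as an alternative. Since the library profile is dominated by the abundant classes, it can remove too much of a gene that those classes share. With 1 library per condition no test between conditions was made. The summing and calling were tested on simulated data. Alternatives were another mitochondrial limit, UMI minimum, doublet, clustering and weighting choice, a background subtraction and TMM scaling (edgeR 4.0.16 on the summed counts). 0 columns of other samples were used or left out. Results for 1 gene that met the rule for named genes are not reported here.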

Additional observations from a re-analysis of the deposited data

Results flagged for a closer look

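C4a, a near-identical copy of C4b, is on the gene list of the CCl4 library alone and had 51 UMIs there, which was 0.142% of the UMIs of C4b and C4a together. It entered no comparison because the healthy list does not hold it.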

How the results depend on the processing

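No paired analysis was possible because each condition was 1 library. Of the alternatives' values for the counts of members, 24 moved and 164 did not, and of those for single members 297 moved, 9 reversed and 912 did not. With a 10% mitochondrial limit hepatocyte-like cells led for 0 healthy members, 1 hepatocyte member was higher and 0 lower, C3 (log2 ratio 0.33) and C1s1 (1.02) reversed there, and 5 endothelial members were higher. With every cell given the same weight, hepatocyte-like cells led for 0 healthy and mesenchymal-like cells for 0 CCl4 members, 2 hepatocyte members were lower, and C1s1 reversed to 0.91. The number of endothelial members called higher was 6 with at least 1000 UMIs per cell, without doublet removal and with TMM scaling, and 5 with 30 principal components, with resolution 2 and with separate clustering. Without doublet removal mesenchymal-like cells led for 0 CCl4 members and 4 mesothelial members were higher. After background subtraction cholangiocyte members were 0 higher and 1 lower, endothelial members 4 lower, with C4b (-0.37) and Serping1 (-3.12) reversed, and mesothelial members 1 higher. With every gene that had a UMI, 1 hepatocyte member was higher. The cause of these changes was not tested.

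The next 2 alternatives were chosen after seeing the data. In the hepatocyte cluster of both libraries 1 member was higher and 0 lower, and C3 (0.70), C1s1 (1.81), Cfb (0.66) and Serping1 (0.15) reversed. Without the Serpinb2-led cluster mesenchymal-like cells led for 0 CCl4 members and 1 mesothelial member was higher. TMM scaling moved the median log2 ratio of all genes from -0.09 to -0.29 in hepatocyte-like, from -0.31 to -0.10 in endothelial-like and from -0.06 to 0.12 in mesothelial-like cells, and turned no member's direction in the 4 classes compared. Precision is limited by cell number in the 23 cholangiocyte-like CCl4 cells and the 12 healthy cells each of the mesenchymal-like and macrophage and monocyte-like classes, and by depth in the CCl4 hepatocyte-like cells, with a median of 899 UMIs.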
